A study of Mus musculus with 6 samples.

Results

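Gnas, Igf2r, Plagl1, Grb10, Impact and the Snrpn region are imprinted loci, stretches of the mouse genome where some transcripts are made mainly or only from the copy inherited from a given parent. The members were chosen by name, as the genes whose Ensembl identifiers in the count table map to these symbols in GENCODE. They are Gnas and Gnasas1 on chromosome 2, Igf2r and Airn on chromosome 17, Plagl1 on chromosome 10, Grb10 on chromosome 11, Impact on chromosome 18, and Snrpn, Ndn and Magel2 on chromosome 7. All 10 were found among the 55416 genes of the table, and 9 of them were among the 15746 genes that passed the filter on low counts and were tested. Airn did not pass that filter.

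Epiblast-like cells (EpiLCs) are formative pluripotent cells that mESCs give rise to within 48 h of leaving the naïve state, and total RNA of WT EpiLCs and of EpiLCs without functional Oct6, a POU transcription factor with the official symbol Pou3f1, was sequenced in 3 replicates each. WT cells were the parental 46C line, which carries a GFP reporter of the neural gene Sox1, and KO cells were 1 clone of that line with a homozygous insertion in the Oct6 coding sequence, so that the genotype and whatever else sets this clone apart from its parent cannot be told apart. Both genotypes left 2i+LIF for N2B27 with 1% KSR, bFGF and ActivinA on fibronectin, at 12 ng/ml and 20 ng/ml according to the sample labels, while other descriptions of the study give the same figures in µg/ml. Library totals were between 10995505 and 14680930 counts, and 23223 to 24634 genes per library had a count.

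Imprints are set in the germ line as DNA methylation on short control regions, and they are copied through cell division while most other methylation is erased and rebuilt around implantation. Many control regions contain the promoter of a long noncoding RNA, which is transcribed from the unmethylated copy and runs across or against the coding genes of the domain. Pluripotent cells in culture are known to lose or gain imprints during passage. The counts of a gene add both parental copies and say nothing about which copy was transcribed.

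Oct6 itself was counted in every library, at 2156, 1563 and 1805 counts in the WT replicates, given here and elsewhere in the order 1 to 3, and 1567, 1825 and 1708 in the KO replicates. The groups overlapped, and counts over the whole gene check nothing about an insertion that leaves the transcript in place. The cells were checked against 6 markers listed as formative, of which the study treats Pou5f1 (Oct4) as a marker of pluripotency in general. Their summed level was 3114, 3244 and 2881 in the WT replicates and 3081, 2980 and 2841 in the KO replicates, in CPM (counts scaled to the normalized library size by edgeR). The DNA methyltransferase Dnmt3b, the most abundant, and Pou5f1 made up most of this sum, with means of 1563 and 898 CPM in WT EpiLCs. Of these 6, Fgf5 and Otx2 passed the test used throughout (edgeR's quasi-likelihood test, Benjamini-Hochberg over all genes tested) and were higher in KO EpiLCs, with log2 fold changes of 0.65 and 0.92 (edgeR adjusted p = 3.8e-04 and 1.7e-04). Dnmt3b and Pou5f1 were lower in KO EpiLCs in every pair of libraries with the same number, with a log2 fold change of −0.19 each (edgeR adjusted p = 0.206 and 0.187), and Dnmt3a (0.22, edgeR adjusted p = 0.129) and Sox3 (0.28, edgeR adjusted p = 0.497; 0.03 without KO replicate 3 and 0.60 without WT replicate 1) did not pass either. A fit that blocked on the replicate number called Dnmt3b, Pou5f1 and Dnmt3a too (edgeR adjusted p = 0.055, 0.0665 and 0.0387).

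Of the 9 members tested, 3 differed between the genotypes at an adjusted p below 0.1 (edgeR), beside 24.3% of all genes. Gnasas1 and Grb10 were higher in KO EpiLCs, where 11.8% of all genes were higher, and Gnas was lower, as were 12.5% of all genes. The share of members called, 33.3%, is near that of the whole table and is not a result about these loci. The median log2 fold change of the tested members was 0.16, beside 0.00 for all genes, and the median of its absolute value was 0.17, beside 0.23. The CPM of the groups did not overlap for Gnas, Gnasas1 and Grb10 among the tested members, and the same was true of 33.7% of all tested genes. Fewer cells expressing a gene and less RNA per cell cannot be told apart in bulk samples such as these.

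**Figure D1:**
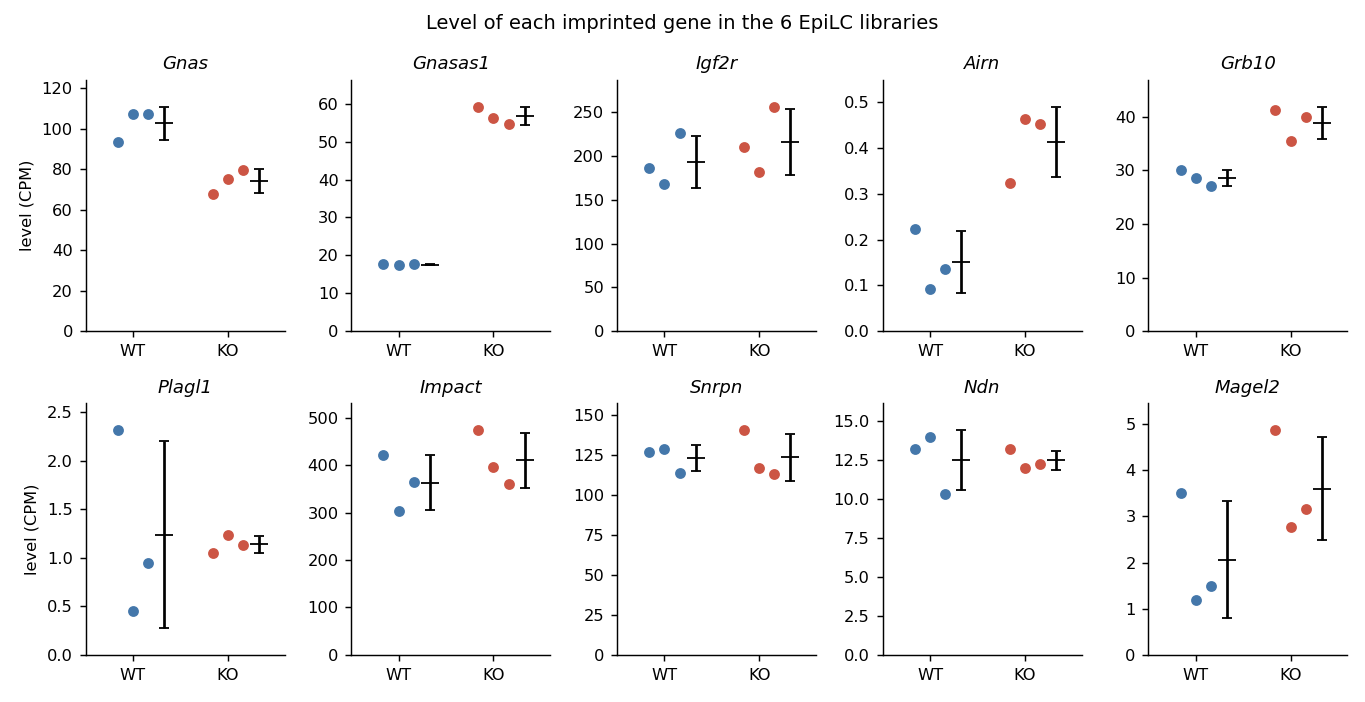
Level of each member in CPM (vertical axis, from 0) in the 3 WT (blue) and 3 KO (red) libraries, with the group mean and SD in black and a scale of its own in each panel. Gnasas1 lies at 17.3 to 17.7 CPM in WT and at 54.8 to 59.2 CPM in KO EpiLCs, whereas the groups of Igf2r, Impact, Snrpn, Ndn, Plagl1 and Magel2 overlap.

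Levels of different genes were compared per kilobase of exon. In WT EpiLCs the order was Impact with 41.9 ± 6.73 CPM per kb (SD, n = 3), Igf2r with 20.6 ± 3.19, Snrpn with 13.1 ± 0.885 and Gnas with 8.55 ± 0.676 CPM per kb. Ndn (3.31 ± 0.504 CPM per kb), Gnasas1 (2.82 ± 0.0272) and Grb10 (2.79 ± 0.147) followed, and the ranges of Ndn and Gnasas1 and those of Gnasas1 and Grb10 overlapped. Magel2 (0.445 ± 0.273 CPM per kb) and Plagl1 (0.145 ± 0.112) overlapped as well, and Airn came last with 0.0142 ± 0.00641 CPM per kb. The order of levels per kb in KO EpiLCs differed in the middle, where Gnasas1 (9.15 ± 0.365 CPM per kb) stood above Gnas (6.19 ± 0.501) without overlap and Grb10 (3.79 ± 0.294) stood above Ndn (3.31 ± 0.166) with overlapping ranges. These lengths join the exons of all annotated transcripts of a gene, and a gene transcribed mainly in a short form therefore has a higher level than its value per kb.

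At the Gnas locus, the coding gene fell and its antisense RNA rose in KO EpiLCs. Gnas (ENSMUSG00000027523.21, chromosome 2 of GRCm39, 174126022 to 174188537, plus strand) encodes the stimulatory G protein subunit that couples hormone receptors to adenylyl cyclase, and alternative starts give it the maternally expressed Nesp55 transcript and paternally expressed transcripts such as that of exon 1A. Gnasas1, also known as Nespas (ENSMUSG00000086537.8, 174108218 to 174137279, minus strand), is a paternally expressed noncoding RNA that runs against the Nesp55 start. The promoters of Gnas and the mature miRNAs of Mir296, a hairpin within Gnasas1, are shown because the 2 genes of this locus moved in opposite directions. They come from RefSeq on GRCm38.p6, an older build than that of the gene positions, and reach from 250 bases before to 50 bases after a start. Capitals mark CpG dinucleotides, the sites of DNA methylation. Named from the known layout of the locus, the starts are at chr2:174284070-174284369 (that of Nesp55, plus strand, 16 CpG), chr2:174327499-174327798 (exon 1A, plus strand, 27 CpG) and chr2:174329756-174330055 (the start of the G protein subunit, plus strand, 40 CpG).
Gnas, Nesp55 start: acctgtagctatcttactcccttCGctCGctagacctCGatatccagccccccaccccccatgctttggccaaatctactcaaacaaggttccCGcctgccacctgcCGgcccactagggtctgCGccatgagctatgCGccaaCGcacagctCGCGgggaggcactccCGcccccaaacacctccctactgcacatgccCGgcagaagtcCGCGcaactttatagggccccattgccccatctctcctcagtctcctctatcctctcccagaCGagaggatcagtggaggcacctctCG
Gnas, exon 1A start: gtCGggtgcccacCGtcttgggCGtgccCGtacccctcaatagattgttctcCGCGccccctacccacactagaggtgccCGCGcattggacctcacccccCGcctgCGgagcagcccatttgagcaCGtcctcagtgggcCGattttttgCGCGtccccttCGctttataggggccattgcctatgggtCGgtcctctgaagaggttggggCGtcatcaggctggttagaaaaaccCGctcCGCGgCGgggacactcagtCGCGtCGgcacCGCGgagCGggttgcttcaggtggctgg
Gnas, G protein subunit start: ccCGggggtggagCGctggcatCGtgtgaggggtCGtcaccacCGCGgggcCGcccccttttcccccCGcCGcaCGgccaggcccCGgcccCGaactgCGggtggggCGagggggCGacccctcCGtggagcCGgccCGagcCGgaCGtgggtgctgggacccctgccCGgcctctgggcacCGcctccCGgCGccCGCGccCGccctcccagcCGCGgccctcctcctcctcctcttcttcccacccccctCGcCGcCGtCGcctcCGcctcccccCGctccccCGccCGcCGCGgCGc
The median promoter window among 32817 in the table held 7 CpG, and the Gnas windows lay above 67%, 84.5% and 96.1% of them. A neighbouring exon 1A window of Gnas, chr2:174327518-174327817, held 28 CpG.

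Gnas had 1250, 1176 and 1588 counts in the WT replicates and 838, 975 and 1061 counts in the KO replicates, which is 93.3, 107 and 107 CPM against 67.9, 75.2 and 79.8 CPM. Every WT library was above every KO library. The log2 fold change was −0.47 (SE, standard error, 0.10, edgeR adjusted p = 0.00315), with a 95% confidence interval of −0.68 to −0.25. Gnasas1 had 236, 190 and 261 counts in the WT replicates and 731, 730 and 728 counts in the KO replicates, or 17.6, 17.3 and 17.7 CPM against 59.2, 56.3 and 54.8 CPM. The 3 libraries of each genotype were close to each other and the groups lay far apart. Its log2 fold change of 1.69 (SE 0.11, edgeR adjusted p = 1.2e-08), a 3.23-fold higher level, had a 95% confidence interval of 1.46 to 1.93. Counts of Gnas cover all of its starts, and the change cannot be assigned to any of them.

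Within a library, the ratio of a gene to its antisense partner does not depend on the library size. The log2 ratio of Gnas over Gnasas1 counts, with 0.5 added to each count, was 2.40, 2.63 and 2.60 in the WT replicates and 0.20, 0.42 and 0.54 in the KO replicates. Gnas counts thus exceeded Gnasas1 counts in all 6 libraries, by a geometric mean of 5.83-fold in WT and 1.31-fold in KO EpiLCs, and the groups did not overlap. The log2 ratio fell by 2.16 (two-sided exact permutation test, p = 0.1, the smallest that 3 against 3 libraries can give; 0.15 after Benjamini-Hochberg adjustment over 3 pairs). The exons of Gnas and Gnasas1 share 1112 bases on opposite strands, out of 12003 exon bases of Gnas and 6207 of Gnasas1. The library kit marks the strand, but the sources used here do not say whether counting used it, and without strand the reads of a gene and of its antisense partner could not be told apart over these bases. In this count table, 51.5% of 515 genes whose exons lie wholly inside exons of the opposite strand had a count, beside 18.4% of 951 genes that lie so on the same strand and 47.3% of 39062 genes that share no exon bases. The shares with at least 60 counts were 10.1%, 6.10% and 21.1% in the same order.

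**Figure D2:**
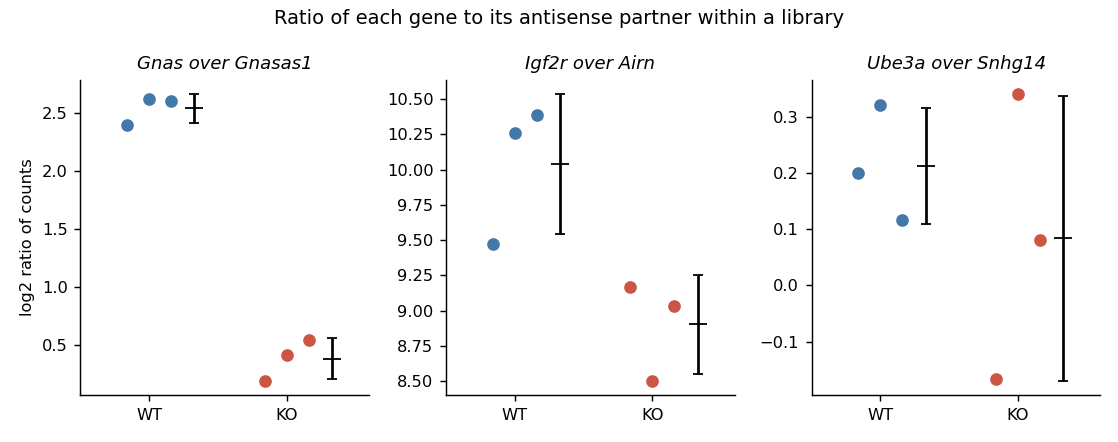
Log2 ratio of the counts of a gene to those of its antisense partner (vertical axis, a scale of its own in each panel) in the 3 WT (blue) and 3 KO (red) libraries, with group mean and SD in black. The Gnas over Gnasas1 ratios lie at 2.40 to 2.63 in WT and 0.20 to 0.54 in KO EpiLCs, the Igf2r over Airn ratios rest on 1 to 6 Airn counts, and those of Ube3a over Snhg14 overlap.

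The body of Gnasas1 contains the hairpin of Mir296 on the same strand (chromosome 2 of GRCm39, 174108840 to 174108918), which shares 14 of its 79 bases with Gnasas1 exons. Its mature miRNAs, shown with the seed (bases 2 to 8) in capitals, are taken from RefSeq on GRCm38.p6, where they lie on the minus strand at chr2:174267093-174267113 for the 5p arm and chr2:174267058-174267079 for the 3p arm.
miR-296-5p: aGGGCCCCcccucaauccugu
miR-296-3p: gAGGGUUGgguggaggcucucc
The seeds of the 2 arms differ. The hairpin had 15, 17 and 8 counts in the WT replicates and 27, 47 and 26 counts in the KO replicates, so that the WT libraries all lay below the KO libraries. The log2 fold change was 1.30 (SE 0.41, edgeR adjusted p = 0.0303), and without KO replicate 2 or WT replicate 3 it was 0.98 (edgeR adjusted p = 0.181) or 0.96 (edgeR adjusted p = 0.14). The libraries were not made from small RNA, and these counts are fragments over the hairpin, not levels of the mature miRNAs. Mir298, another hairpin inside Gnasas1 that was named after its values were seen, had 0, 0 and 1 counts in the WT replicates and 7, 3 and 3 counts in the KO replicates and was not tested.

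Across the 6 libraries, the genes whose log2 CPM followed that of Gnasas1 most closely among 13078 genes were Usp7 on chromosome 16 (Pearson r = 0.9996), Kyat3 on chromosome 3 (r = 0.9977) and Ctu1 on chromosome 7 (r = 0.9976). These correlations describe libraries that fall into 2 genotypes, and any gene with a steady difference between them scores high. Usp7, a deubiquitinase, had a mean of 674 ± 7.29 CPM (SD, n = 3) in WT and 1146 ± 29.3 CPM in KO libraries. Its log2 fold change was 0.77 (edgeR adjusted p = 9.6e-06), and the median over the 471 tested genes of chromosome 16 was itself 0.55.

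Within 500 kb of Gnas, the only other upward call was that of Mir296, whose hairpin lies inside Gnasas1 on the same strand. Of 8 tested genes within 500 kb, 4 passed the test, Mir296 upward and Npepl1, Ctsz and Nelfcd downward, which is 50% beside 24.3% of all genes, and the median log2 fold change was −0.06. Npepl1, a predicted aminopeptidase gene, fell by 0.60 on the log2 scale (SE 0.13, edgeR adjusted p = 0.00337), with 26.1, 30.7 and 29.7 CPM in the WT replicates and 18.6, 17.2 and 21.2 CPM in the KO replicates. Ctsz, which encodes the lysosomal protease cathepsin Z, fell by 0.44 (SE 0.10, edgeR adjusted p = 0.00436), from 61.1 ± 0.985 to 45.1 ± 0.925 CPM. Nelfcd, a subunit of the negative elongation factor, had a log2 fold change of −0.29 (edgeR adjusted p = 0.0655), and its call was lost without KO replicate 2, KO replicate 3 or WT replicate 1 (log2 fold changes of −0.29, −0.26 and −0.20, edgeR adjusted p of 0.156 to 0.268).

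Igf2r did not pass the test, and its antisense RNA Airn had few counts over its annotated exons. Igf2r (ENSMUSG00000023830.15, chromosome 17 of GRCm39, 12901293 to 12988614, minus strand) encodes the receptor that carries IGF2 and mannose 6-phosphate tagged enzymes to lysosomes, and is expressed from the maternal copy in most mouse tissues. Airn (ENSMUSG00000078247.6, 12960198 to 13079299, plus strand) is the paternally expressed noncoding RNA that starts within Igf2r, runs against its promoter and silences it on that copy. Igf2r had 186, 168 and 226 CPM in the WT replicates and 210, 182 and 256 CPM in the KO replicates. Each KO library was above the WT library with the same replicate number, but the groups overlapped, and the log2 fold change was 0.16 (SE 0.13, edgeR adjusted p = 0.436), with a 95% confidence interval of −0.10 to 0.42. With a library left out it lay between 0.02 (without KO replicate 3) and 0.29 (without WT replicate 3), and no such fit called it. Airn had 3, 1 and 2 counts in the WT replicates and 4, 6 and 6 counts in the KO replicates. The KO counts were all above the WT counts. In the fit without a filter on low counts, the log2 fold change of Airn was 1.38 (SE 0.96, edgeR adjusted p = 0.481). The log2 ratio of Igf2r over Airn was 9.47, 10.26 and 10.39 in the WT replicates and 9.17, 8.50 and 9.03 in the KO replicates, without overlap. It fell by 1.14 (two-sided exact permutation test, p = 0.1, the smallest possible; 0.15 after adjustment over 3 pairs), and it rests on so few Airn counts that a different pseudocount of 1 gave −0.97. Igf2r and Airn share no exon bases. STAR counts reads over exons, which are 10545 bases of Airn, and reads from the rest of its body would not be in these counts.

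Slc22a3 and Slc22a2, the listed partners in the Igf2r domain, were near or below detection. Slc22a3, an organic cation transporter that is imprinted in placenta, had between 1 and 7 counts per library, and its relative Slc22a2 had 0 counts in each of the 6 libraries. Of 10 tested genes within 500 kb of Igf2r or Airn, 1 passed, the lysophosphatidic acid acyltransferase gene Agpat4, with a log2 fold change of −0.44 (SE 0.14, edgeR adjusted p = 0.0358). This is 10% of them, beside 24.3% of all genes. Its call was lost without KO replicate 2, KO replicate 3 or WT replicate 1 (log2 fold changes of −0.33, −0.43 and −0.31, edgeR adjusted p of 0.101 to 0.18).

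Grb10 rose in KO EpiLCs. Grb10 (ENSMUSG00000020176.18, chromosome 11 of GRCm39, 11880498 to 11988683, minus strand) encodes an adaptor that dampens insulin and IGF receptor signalling and restrains growth, and it is expressed from the maternal copy in most tissues and from the paternal copy in neurons. Its CpG-rich promoter is shown for comparison with those of Gnas, from RefSeq on GRCm38.p6, chr11:12037371-12037670, minus strand, with CpG in capitals.
Grb10: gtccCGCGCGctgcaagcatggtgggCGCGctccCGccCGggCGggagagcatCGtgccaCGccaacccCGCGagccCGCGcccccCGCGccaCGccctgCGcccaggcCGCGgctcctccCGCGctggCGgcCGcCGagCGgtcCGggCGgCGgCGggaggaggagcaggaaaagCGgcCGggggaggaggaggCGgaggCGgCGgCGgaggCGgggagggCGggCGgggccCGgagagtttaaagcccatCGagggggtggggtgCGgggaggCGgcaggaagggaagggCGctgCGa
This window held 45 CpG, more than 98.1% of the windows in the table, and a further Grb10 window, chr11:12027922-12028221, held 9.

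Grb10 had 403, 313 and 400 counts in the WT replicates and 509, 460 and 531 counts in the KO replicates, which is 30.1, 28.6 and 27.1 CPM against 41.2, 35.5 and 39.9 CPM. The KO libraries all exceeded the WT libraries. The log2 fold change was 0.45 (SE 0.12, edgeR adjusted p = 0.0106), with a 95% confidence interval of 0.20 to 0.69. Ddc, which encodes the decarboxylase that makes dopamine and serotonin and is imprinted in heart, had 9.33, 14.3 and 14.9 CPM in the WT replicates and 15.2, 20.3 and 18.3 CPM in the KO replicates. Ddc did not overlap between the groups, although KO replicate 1 was just above WT replicate 3, and it had a log2 fold change of 0.48 (SE 0.18, edgeR adjusted p = 0.0692). Cobl, an actin nucleator, rose from 11.6 ± 1.24 to 15.6 ± 1.14 CPM (SD, n = 3), a log2 fold change of 0.43 (SE 0.16, edgeR adjusted p = 0.0632). The calls of Ddc and Cobl depend on single libraries. Ddc lost its call without KO replicate 2, KO replicate 3 or WT replicate 1, with log2 fold changes of 0.39, 0.47 and 0.29 and edgeR adjusted p of 0.159 to 0.282. Cobl lost it without KO replicate 2, KO replicate 3, WT replicate 2 or WT replicate 3, with log2 fold changes of 0.38 to 0.43 and edgeR adjusted p of 0.132 to 0.186, and also without a filter on low counts (edgeR adjusted p = 0.111). Fignl1, a further neighbour, had a log2 fold change of 0.26 (edgeR adjusted p = 0.0706), and was called in 1 of the 6 fits that left out a library and neither with library totals alone nor without a filter on low counts (edgeR adjusted p = 0.101 and 0.137). Of the 4 tested genes within 500 kb of Grb10, 3 were thus higher, beside 11.8% of all genes, and the median log2 fold change was 0.34. Each of these 3 lost its call without KO replicate 3.

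**Figure D3:**
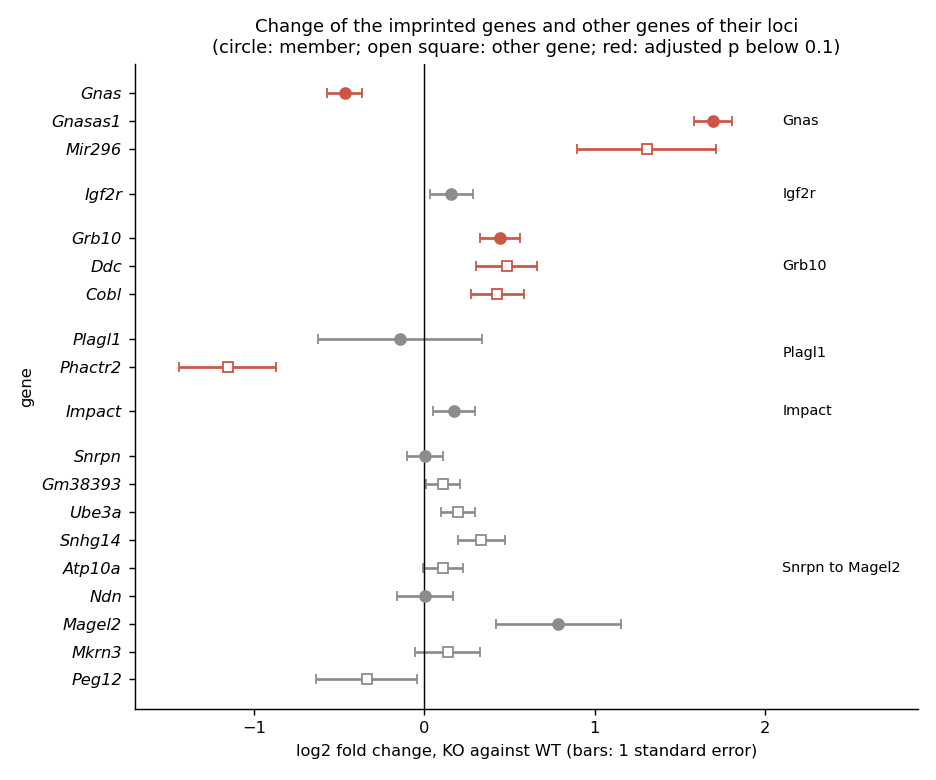
Log2 fold change of KO against WT EpiLCs (horizontal axis, bars of 1 standard error) for the 9 tested members (circles) and other tested genes of their loci (open squares), grouped by locus, with genes of an adjusted p below 0.1 in red. Gnasas1 (1.69) and Gnas (−0.47) lie on opposite sides of 0, Grb10, Ddc and Cobl lie together at 0.43 to 0.48, and no gene of the Snrpn to Magel2 region is in red.

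Plagl1 (ENSMUSG00000019817.19, chromosome 10 of GRCm39, 12936248 to 13007438, plus strand), a paternally expressed zinc finger gene that regulates other imprinted genes, was barely expressed. It had 31, 5 and 14 counts in the WT replicates and 13, 16 and 15 counts in the KO replicates. The WT libraries spread on both sides of the KO libraries, with WT replicate 1 the highest and WT replicate 2 the lowest of all 6. The log2 fold change was −0.14 (SE 0.48, edgeR adjusted p = 0.883), and its 95% confidence interval of −1.15 to 0.86 covers changes in either direction. It was 0.64 without WT replicate 1 and −0.51 without WT replicate 2, and no fit called it. Phactr2, a phosphatase and actin regulator, had 61, 66 and 96 counts in the WT replicates and 20, 32 and 47 counts in the KO replicates. All WT libraries were above all KO libraries, and Phactr2 fell by 1.15 on the log2 scale (SE 0.28, edgeR adjusted p = 0.00687). Of 9 tested genes within 500 kb of Plagl1, 3 passed (33.3%, near the 24.3% of all genes), with Adat2, a tRNA deaminase subunit, also lower (−0.39, edgeR adjusted p = 0.0898) and Utrn, which encodes utrophin, higher (0.35, edgeR adjusted p = 0.0225). Adat2 was called in 1 of the 6 fits that left out a library and Utrn in 5, the exception being the fit without KO replicate 3 (0.28, edgeR adjusted p = 0.122). Adat2 also lost its call with DESeq2 (adjusted p = 0.142) and without a filter on low counts (edgeR adjusted p = 0.149).

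Impact (ENSMUSG00000024423.7, chromosome 18 of GRCm39, 13088909 to 13126012, plus strand), a paternally expressed gene whose product restrains the amino acid sensing kinase GCN2, had the highest level per kb of the members in both genotypes. It had 421, 304 and 364 CPM in the WT replicates and 473, 396 and 360 CPM in the KO replicates. The groups overlapped, and the log2 fold change was 0.17 (SE 0.12, edgeR adjusted p = 0.367; 95% confidence interval −0.08 to 0.43). With a library left out it lay between 0.06 (without KO replicate 1) and 0.29 (without WT replicate 1), and no such fit called it. Of the 4 tested genes within 500 kb, 2 were higher, beside 11.8% of all genes, and the median log2 fold change was 0.56, beside 0.00 for all genes. Lama3, a laminin chain, rose from 6.45 ± 0.448 to 10.7 ± 0.267 CPM (SD, n = 3), a log2 fold change of 0.73 (SE 0.18, edgeR adjusted p = 0.00606). Osbpl1a, an oxysterol-binding protein gene that starts beside Impact on the other strand, had a log2 fold change of 0.26 (edgeR adjusted p = 0.0704), and was called in 1 of the 6 fits that left out a library, but neither with library totals alone nor without a filter on low counts (edgeR adjusted p = 0.107 and 0.148).

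In the Snrpn region, whose human counterpart is affected in Prader-Willi and Angelman syndromes, no tested gene passed in the fit without pairing. Snrpn (ENSMUSG00000102252.6, chromosome 7 of GRCm39, 59630427 to 59820763, minus strand), Ndn (ENSMUSG00000033585.6, 61995473 to 62000010) and Magel2 (ENSMUSG00000056972.7, 62026758 to 62031388) are expressed from the paternal copy and encode a splicing protein and 2 relatives of the MAGE family. Snrpn had 127, 129 and 113 CPM in the WT replicates and 140, 117 and 113 CPM in the KO replicates. Its groups overlapped, and the log2 fold change of 0.00 (SE 0.10, edgeR adjusted p = 0.983) had a 95% confidence interval of −0.21 to 0.23. Ndn was between 10.4 and 14.0 CPM in every library, with a log2 fold change of 0.00 (SE 0.17, 95% confidence interval −0.34 to 0.35). Magel2 had 47, 13 and 22 counts in the WT replicates and 60, 36 and 42 counts in the KO replicates. Each KO library was above the WT library with its number, and WT replicate 1 lay among the KO libraries. The log2 fold change of Magel2 was 0.79 (SE 0.37, edgeR adjusted p = 0.156). With the replicate number as a block, as the study's pairing allows, it was 0.86 (edgeR adjusted p = 0.0277), so that 4 of 9 members were called beside 30.3% of all genes. Without WT replicate 1 it was 1.40 (edgeR adjusted p = 0.0119), and without a filter on low counts the adjusted p was 0.0958 (edgeR). The other 5 fits that left out a library did not call it, with log2 fold changes from 0.51 (without KO replicate 1, edgeR adjusted p = 0.491) to 0.94 (without KO replicate 2, edgeR adjusted p = 0.123), and DESeq2 gave an adjusted p of 0.243.

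Counts of Snrpn are uncertain where gene models overlap. Snurf, the upstream reading frame of the Snrpn transcript, had 0 counts in all 6 libraries, and its 216 exon bases lie wholly inside exons of Snrpn and Gm38393 on the same strand, where STAR assigns a shared read to no gene. Gm38393, a readthrough gene model that shares 1250 exon bases with Snrpn, had 286 ± 15.9 CPM (SD, n = 3) in WT and 309 ± 32.9 CPM in KO libraries, which is a log2 fold change of 0.11 (edgeR adjusted p = 0.508), or 0.02 without KO replicate 1.

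Ube3a and Snhg14 are a further pair of opposite strands. Ube3a encodes a ubiquitin ligase and is silenced on the paternal copy in neurons only, where the paternally expressed noncoding RNA Snhg14 runs across it. Ube3a had 207, 190 and 241 CPM in the WT replicates and 250, 240 and 243 CPM in the KO replicates, and Snhg14 had 180, 152 and 222 CPM in the WT replicates and 281, 189 and 230 CPM in the KO replicates. For each of them WT replicate 3 lay within the range of the KO libraries. The log2 fold changes were 0.20 (SE 0.10, edgeR adjusted p = 0.202) for Ube3a and 0.33 (SE 0.14, edgeR adjusted p = 0.106) for Snhg14. Both were called with the replicate block, with adjusted p = 0.0866 and 0.00951 (edgeR), and Snhg14 was also called without a filter on low counts (edgeR adjusted p = 0.0213). Without WT replicate 3 the log2 fold changes were 0.29 and 0.48 (edgeR adjusted p = 0.053 and 0.0252), and without KO replicate 2 that of Snhg14 was 0.46 (edgeR adjusted p = 0.0273). The lowest values with a library left out were 0.12 for Ube3a (without WT replicate 2, edgeR adjusted p = 0.51) and 0.18 for Snhg14 (without KO replicate 1, edgeR adjusted p = 0.492). The log2 ratio of Ube3a over Snhg14 was 0.20, 0.32 and 0.12 in the WT replicates and −0.17, 0.34 and 0.08 in the KO replicates. The KO libraries covered the WT range, and the difference of −0.13 did not exceed the spread (two-sided exact permutation test, p = 0.5, also 0.5 after adjustment). It was −0.002 without KO replicate 1 and −0.26 without KO replicate 2. The exons of Ube3a and Snhg14 share 1803 bases on opposite strands, with the same uncertainty as for Gnas.

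Other coding genes of the region did not pass the test. Mkrn3, a ubiquitin ligase gene that restrains puberty, had 9.61 ± 2.27 CPM (SD, n = 3) in WT and 10.6 ± 0.582 CPM in KO libraries, and its log2 fold change was 0.14 (edgeR adjusted p = 0.691). Peg12 had 3.58 ± 1.06 and 2.86 ± 0.665 CPM, with a log2 fold change of −0.34 (edgeR adjusted p = 0.486). Atp10a, a lipid flippase gene, had 38.1 ± 3.81 and 41.1 ± 3.51 CPM, with a log2 fold change of 0.11 (edgeR adjusted p = 0.577). With a library left out, the log2 fold change lay between −0.05 and 0.27 for Mkrn3, −0.52 and −0.10 for Peg12 and 0.04 and 0.18 for Atp10a, and no such fit called them.

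In all, 11 of 13 listed partners of these domains were found in the count table and 8 were tested, of which 2 were higher and 1 lower, beside 24.3% of all genes called. Their median log2 fold change was 0.17. With the replicate block 5 of the 8 were called, beside 30.3% of all genes. Without KO replicate 3, 1 was called. Of the 40 tested genes within 500 kb of a member, 7 were higher and 6 lower, with a median of 0.10, and 6 of these 40 are also among the 8 tested partners. The count was 5 without KO replicate 3, 7 without KO replicate 2 and 8 without WT replicate 1. Within 1 Mb, 21 of 64 tested genes were called, which is 32.8%, beside 32.5% within 500 kb and 24.3% of all genes. Fignl1, Nelfcd, Adat2, Utrn and Osbpl1a are named here after their values were seen.

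**Figure D4:**
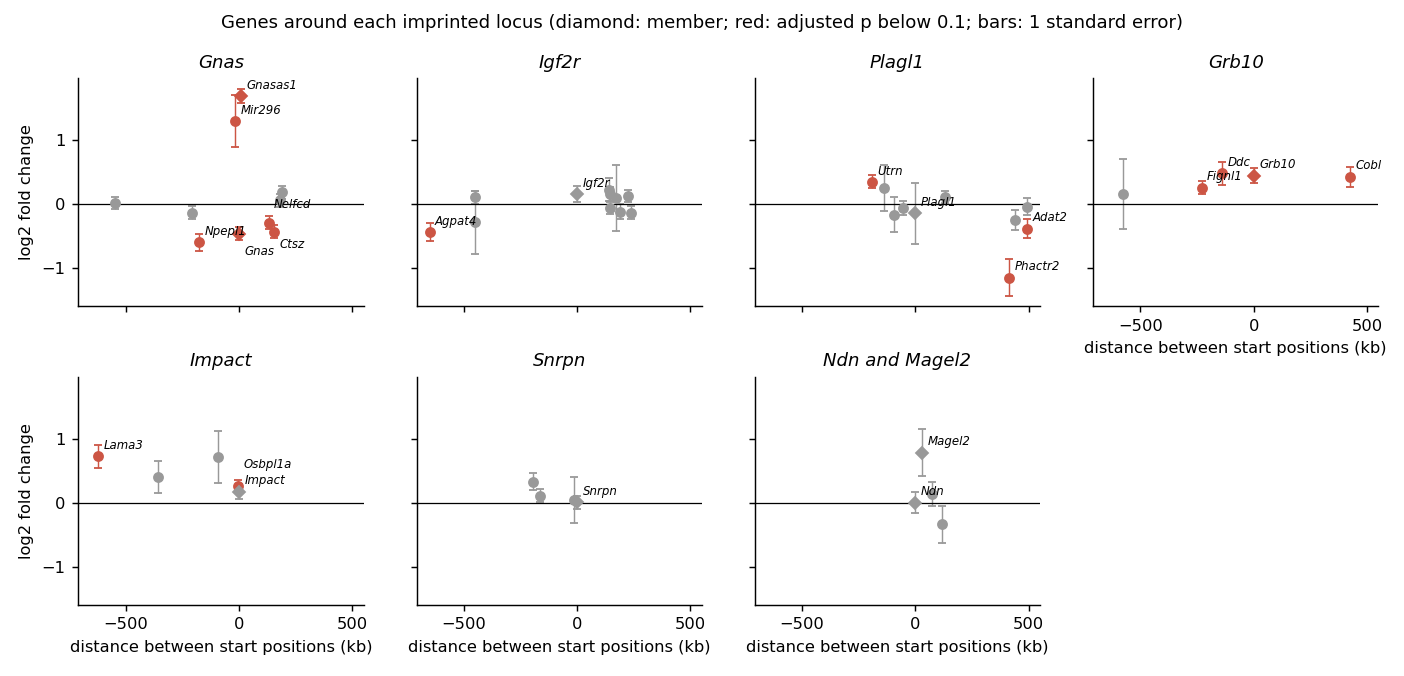
Log2 fold change of KO against WT EpiLCs (vertical axis, bars of 1 standard error) of each tested gene within 500 kb of a member, measured between the nearest ends of the genes, by the distance in kb from start to start (horizontal axis), which can be longer, with members as diamonds and genes of an adjusted p below 0.1 in red. Near Gnas, Gnasas1 and Mir296 lie above 0 while Gnas, Npepl1, Ctsz and Nelfcd lie below, and the 4 neighbours of Grb10 lie above 0 with it, 3 of them in red.

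RefSeq promoter windows of 8 of the 10 members were used, 15 windows in all. Windows on chromosome 18, where Impact lies, were left out, and no window was found for Gnasas1. The Igf2r window (chr17:12769657-12769956 of GRCm38.p6) held 34 CpG and that of Airn (chr17:12741061-12741360) held 3. Plagl1 had 26 CpG, Ndn 11, Magel2 10, and the 4 windows of Snrpn 2 to 7. The hexamer TGCCGC, searched on both strands as the letters bound by the imprint-protecting zinc finger protein ZFP57, was present in 3 of the 15 windows, 1 each of Grb10, Plagl1 and Snrpn, beside 11.6% of all 32817 windows. The octamer ATGCAAAT, the letters bound by POU factors such as OCT6, was present in 0 of the 15 and in 1.74% of all windows.

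Imprinted genes outside these loci were counted for comparison. Of 64 listed from general knowledge, 47 were tested and 25 called, 7 higher and 18 lower in KO EpiLCs, which is 53.2% beside 24.3% of all genes, with a median log2 fold change of −0.23. The largest was that of Slc38a4, an amino acid transporter gene imprinted in placenta, which rose from 30.6 ± 4.93 to 178 ± 2.05 CPM (SD, n = 3), a log2 fold change of 2.53 (SE 0.12, edgeR adjusted p = 1.4e-10). The paternally expressed genes Peg3 and Usp29 and the maternally expressed Zim1, neighbours on chromosome 7, were also higher, with log2 fold changes of 1.32, 1.07 and 1.58. Zim1 had between 4 and 27 counts per library, and its call was lost without KO replicate 3 (1.31, edgeR adjusted p = 0.148). Phlda2, a growth restrainer of the placenta, fell by 1.33 (edgeR adjusted p = 3.2e-05). Mest, Sgce and Pon3 on chromosome 6 fell by 1.82, 1.03 and 0.88. On that chromosome the median over all tested genes was itself −0.40, and 8 of the 11 imprinted genes tested there were called, each of them lower. Outside chromosome 6 and chromosome 16, whose medians were −0.40 and 0.55, 17 of 36 were called, 7 higher and 10 lower. The call of Pon3 was lost without KO replicate 1, KO replicate 3, WT replicate 1 or WT replicate 3 (log2 fold changes of −0.88 to −0.76, edgeR adjusted p of 0.114 to 0.192) and with DESeq2 (adjusted p = 0.154). None of the members lies on chromosome 6 or 16.

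Of 27 factors that set, keep or help to erase imprints, 26 were tested and 6 were called, 4 higher and 2 lower, with a median log2 fold change of 0.10. This is 23.1%, beside 24.3% of all genes. Zfp42, a relative of YY1 that binds imprinted loci, is also known as Rex1, which the paper lists among naïve pluripotency markers. Its log2 fold change was 0.54 (edgeR adjusted p = 9.0e-04), from a mean of 121.8 CPM in WT to 177.4 CPM in KO EpiLCs. The groups did not overlap, and Zfp42 was called in all 6 fits that left out a library. The paper, in contrast, reports no difference in Rex1 expression between WT and KO EpiLCs. The reason for this disagreement was not tested. Tet1, which oxidizes methylated cytosine, had a log2 fold change of 0.42 (edgeR adjusted p = 0.0168). Cbx3, a heterochromatin protein on chromosome 6, where the median over all tested genes was −0.40, fell by 0.46 (edgeR adjusted p = 0.00566). Dnmt1, the maintenance DNA methyltransferase, had 400 ± 20.8 CPM (SD, n = 3) in WT and 470 ± 26.0 CPM in KO EpiLCs, and its log2 fold change of 0.23 (edgeR adjusted p = 0.0945) was called in 0 of the 6 fits that left out a library (edgeR adjusted p of 0.103 to 0.248). Tet3 (−0.34), which lies on chromosome 6 and fell by less than that median, was called in 1 of these fits and Arid4a (0.33) in 2. The calls of Tet3 and Arid4a were also lost with DESeq2 (adjusted p = 0.126 and 0.138) and without a filter on low counts (edgeR adjusted p = 0.14 and 0.128), and those of Arid4a and Dnmt1 with library totals alone (edgeR adjusted p = 0.138 and 0.133). Dnmt1 was not called without that filter either (edgeR adjusted p = 0.165). With the replicate block 11 of the 26 were called, beside 30.3% of all genes, and without KO replicate 2 or WT replicate 1, 3 were.

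**Figure D5:**
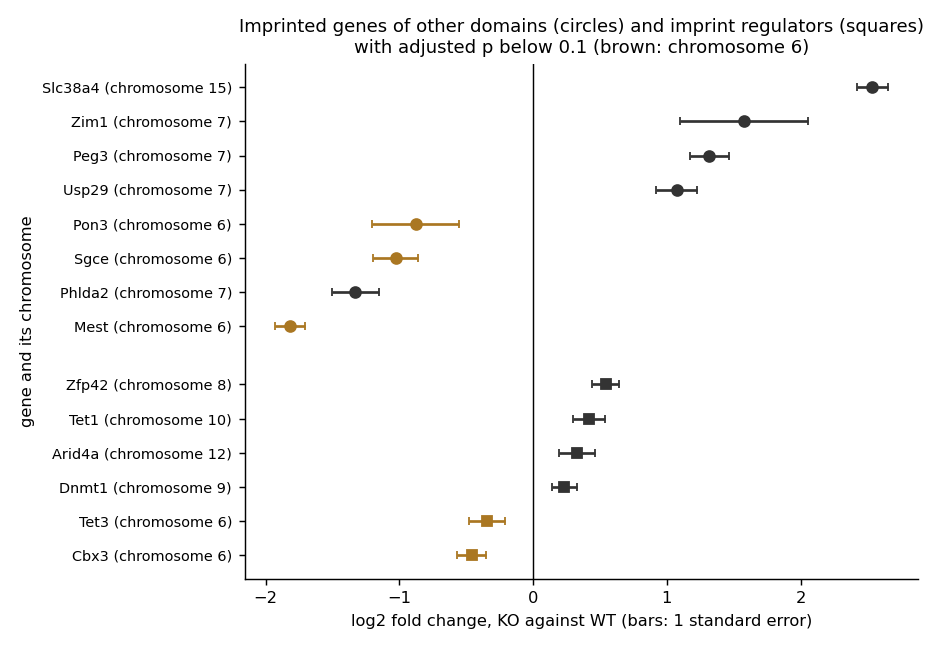
Log2 fold change of KO against WT EpiLCs (horizontal axis, bars of 1 standard error) of the 8 called imprinted genes of other domains with the largest absolute change (circles) and of the 6 called imprint regulators (squares), with genes on chromosome 6 in brown. Slc38a4 (2.53) and Mest (−1.82) are the extremes, and the brown genes lie below 0.

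Markers of other cell states moved with the genotype as well, and their part in the results was not tested. Of 6 naïve markers, 2 were called, both higher (Esrrb and Prdm14). The summed level of the 6 was 65.2, 71.9 and 65.3 CPM in the WT replicates and 89.5, 94.1 and 121 CPM in the KO replicates. Tfcp2l1 was the most abundant of them in WT EpiLCs and Esrrb in KO EpiLCs. Of 6 primitive endoderm markers, 4 were tested and 2 called, both higher (Gata6 and Pdgfra). The call of Gata6 was lost without KO replicate 3 (edgeR adjusted p = 0.113), and Pdgfra (edgeR adjusted p = 0.0991), whose groups overlapped, was called in 2 of the 6 fits that left out a library and not with DESeq2 or with library totals alone (DESeq2 adjusted p = 0.157, edgeR adjusted p = 0.124). The summed level of the 6 markers was 8.06, 6.11 and 7.04 CPM in the WT replicates and 13.7, 6.17 and 17.6 CPM in the KO replicates, so that KO replicate 2 did not share the higher level. Dab2 was the most abundant in WT EpiLCs, with a mean of 2.60 CPM. In KO EpiLCs the means of Gata6 (3.51 CPM) and Pdgfra (3.43 CPM) were above that of Dab2 (3.28 CPM). Sox7 had under 10 counts in every library. Of 5 mesendoderm markers, Eomes, the most abundant, was tested and was higher, while T, Mixl1, Gsc and Mesp1 had under 10 counts in every library, and their sum was 6.49, 6.30 and 6.16 CPM against 10.9, 8.79 and 11.8 CPM. Of 4 neural markers, 2 were tested, and both were lower (Sox1 and Tubb3). Pax6 and Neurog2, with at most 10 and 2 counts in a library, were not tested. The sum over the 4 was 39.7, 39.9 and 31.6 CPM against 22.6, 22.5 and 24.2 CPM, most of it from Tubb3, the most abundant. Of 6 trophoblast markers, 2 were tested. Krt7, the most abundant in WT EpiLCs, was lower, and its mean in KO EpiLCs (3.36 CPM) was below that of Tfap2c (4.05 CPM). Tfap2c was not called (0.05, edgeR adjusted p = 0.927), and its log2 fold change lay between −0.15 and 0.29 with a library left out. Cdx2, Elf5, Gata3 and Hand1 had under 10 counts in every library. The sum over the 6 markers was 11.4, 11.9 and 11.0 CPM against 7.54, 7.02 and 8.42 CPM.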

How the data were processed

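The deposited values are raw counts per gene, which the authors made from stranded total RNA libraries depleted of ribosomal RNA: reads were checked with FastQC, trimmed with Fastp and mapped to GRCm39 with STAR in 2 passes, which also counted them. The STAR version, the annotation release and the use of the strand are not given in the sources used here. From these counts, all else was computed here. Identifiers were matched to GENCODE M39 (54749 of 55416 found). Counts were scaled by TMM, filtered with filterByExpr and tested with edgeR 4.0.16 (quasi-likelihood, genotype alone, Benjamini-Hochberg over 15746 genes, called below 0.1; R 4.3.3). Confidence intervals use the test's standard error and degrees of freedom. The procedure was tested on simulated data. Totals of 10995505 to 14680930 counts set the precision, with a biological coefficient of variation of 11.7%. Replicates are described as biological, so p-values measure the spread between these cultures. Same-number libraries deviated together (correlations 0.257, 0.298 and 0.122 over 13078 genes, against −0.233 to −0.0379), and the study calls them paired, so blocked values are given where they change a call. Replicates differed by more than sampling noise.

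Named are the members, the partners found, Pou3f1, some of the markers, up to 8 called genes per other list by absolute log2 fold change, and the 3 genes most correlated with Gnasas1. The members and lists were chosen with earlier results of these data known. Hymai and Ipw were not found. A further neural marker of the planned list is not reported here. Alternatives were DESeq2 1.42.0, RLE factors, library totals alone, other filters, a replicate block, a threshold of 0.05, other distances and pseudocounts, summed gene models and each library left out.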

Additional observations from a re-analysis of the deposited data

How the results depend on the processing

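Of 118 member log2 fold changes under alternatives, 109 kept their direction and 106 also their side of the threshold. Gnas, Gnasas1 and Grb10 were called in every one run. Plagl1, Snrpn and Ndn turned direction in 9: Plagl1 ranged from −0.51 to 0.64, Snrpn from −0.10 to 0.066 and Ndn from −0.12 to 0.082 with a library left out, and library totals alone gave −0.019 for Snrpn and −0.020 for Ndn and no filter −0.002 and −0.003. None of these passed the threshold. The cause was not tested. Magel2 became called in 3. The replicate block moved the count of called partners from 3 to 5 and of regulators from 6 to 11, and changed no call of a member other than Magel2. At an adjusted p below 0.05, 1 partner, 7 neighbours and 3 regulators were called, as fewer genes pass a stricter threshold. Without a filter 3 regulators were called, and the cause was not tested. Within 1 Mb, where more genes are tested, 21 neighbours were called. With a library left out, calls were 1 to 4 for partners, 5 to 12 for neighbours, 3 to 7 for regulators and 3 to 4 for members, and the cause was not tested. Summing Snrpn, Snurf and Gm38393, chosen after seeing the data, left Snrpn uncalled. Depth limits Airn, Plagl1, Magel2 and Mir296, which have under 100 counts per library.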
